A study of Arabidopsis thaliana with 48 samples.

Results

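The nuclear genes of Arabidopsis thaliana for small heat shock proteins of organelles, 6 in number, were followed in leaves exposed to excess light. HSP21 (AT4G27670) encodes the plastid form, HSP22 (AT4G10250) the form of the endoplasmic reticulum, HSP23.5 (AT5G51440), HSP23.6 (AT4G25200) and HSP26.5 (AT1G52560) the mitochondrial forms, and HSP15.7 (AT5G37670) the peroxisomal form. The genes were chosen by locus and by the compartment of the product, not by a cut on measured values. Earlier results of these data were known when they were chosen. They made up 6 of the 32833 genes listed in each table. The compartments come from the annotation of the proteins and were not measured here.

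Small heat shock proteins are chaperones that work without ATP. They bind proteins that are losing their fold and hold them until ATP-driven chaperones, such as HSP70 and the ClpB disaggregases, refold them. Land plants carry separate forms for the cytosol and for several organelles, all encoded in the nucleus, and HSP21 is known for protecting thylakoid membranes in heat. In leaves at ordinary temperature their transcripts are scarce, and heat shock factors, which bind inverted repeats of GAA called heat shock elements, switch the genes on.

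Plants of Columbia (Col), called WT here, and of the rbohD knockout were 4 to 5 weeks old, and 1 leaf of each plant was lit at 2000 µmol per square metre per second for 0, 2, 4 or 8 min. RBOHD is the oxidase that produces apoplastic superoxide and is needed for the reactive oxygen signal to travel from leaf to leaf. The lit leaf is the local leaf, an unlit leaf of the same plant is the systemic leaf, and the 0 min plants were controls that had received no excess light. There were 16 groups and 48 libraries, with 3 replicates to a group and leaves of many plants pooled for each, in 4 tables of 12 libraries that each held 1 genotype and 1 leaf. The groups were WT local, WT systemic, rbohD local and rbohD systemic at each of the 4 times, with no other allele or agent named in the labels. The tables were normalized separately and the genotypes are named as separate experiments, so genotype, experiment and normalization cannot be told apart in a level, and no level was tested across tables. In these bulk samples, fewer cells with a transcript and less transcript per cell cannot be told apart either.

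Reads assigned to genes numbered 13412657 to 28675623 per library. RBOHD transcripts were at 1096 to 2153 normalized counts in the WT libraries and at 337 to 697 in the libraries labelled rbohD, so every library labelled rbohD lay below every WT library. The leaf markers RBCS1A, CA1 and LHCB2.1 were high throughout, with at least 51505 normalized counts in every library. Of the markers of other organs, the seed genes CRU1, SESA1 and OLEO1 reached at most 30.1, 1.02 and 4.08 normalized counts, and the root gene PYK10 lay between 7.34 and 303. Within groups, all 48 pairs of replicates differed by more than counting error (chi-square per degree of freedom 1.25 to 5.13).

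All 6 genes are protein-coding and none overlaps another annotated gene on the TAIR10.1 assembly. HSP21 lies on chr4:13818825-13819971 (minus strand), HSP22 on chr4:6370338-6371372 (plus), HSP23.5 on chr5:20891163-20892416 (plus), HSP23.6 on chr4:12916926-12918110 (plus), HSP26.5 on chr1:19574538-19575866 (minus) and HSP15.7 on chr5:14968758-14969591 (plus). HSP22 and HSP15.7 are single-exon genes, and the other genes have 2 exon blocks. Exon length was between 834 bases for HSP15.7 and 1115 bases for HSP23.5.

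The region around each annotated start was searched for heat shock elements in their short forms GAANNTTC and TTCNNGAA, each of which is its own reverse complement, from 250 bases before to 50 bases after the start. A short form was present in 5 of the 6 genes and in 19.3% of 27443 gene starts searched in the same way. In HSP21, HSP23.5, HSP26.5 and HSP15.7 it lay before the start, and these 4 regions are shown for the place and letters of the match, which is in capitals. They are the 250 bases before the start on the strand of the gene, 5′ to 3′, from the RefSeq TAIR10.1 sequence.
HSP21, chr4:13819972-13820221, minus strand: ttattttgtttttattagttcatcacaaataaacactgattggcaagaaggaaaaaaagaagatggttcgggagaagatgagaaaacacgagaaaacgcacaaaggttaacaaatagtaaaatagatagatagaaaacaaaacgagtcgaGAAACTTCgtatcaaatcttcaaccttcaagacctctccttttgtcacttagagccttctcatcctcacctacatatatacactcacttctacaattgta
HSP23.5, chr5:20890913-20891162, plus strand: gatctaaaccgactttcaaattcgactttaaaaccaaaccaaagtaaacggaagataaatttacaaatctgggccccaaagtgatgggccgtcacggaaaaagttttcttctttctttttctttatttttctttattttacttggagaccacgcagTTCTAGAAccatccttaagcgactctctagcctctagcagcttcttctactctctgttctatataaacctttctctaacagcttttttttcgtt
HSP26.5, chr1:19575867-19576116, minus strand: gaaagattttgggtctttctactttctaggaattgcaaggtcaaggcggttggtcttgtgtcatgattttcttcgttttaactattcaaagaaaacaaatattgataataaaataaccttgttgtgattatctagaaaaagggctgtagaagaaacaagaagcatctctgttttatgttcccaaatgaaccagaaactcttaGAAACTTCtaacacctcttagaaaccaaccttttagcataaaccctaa
HSP15.7, chr5:14968508-14968757, plus strand: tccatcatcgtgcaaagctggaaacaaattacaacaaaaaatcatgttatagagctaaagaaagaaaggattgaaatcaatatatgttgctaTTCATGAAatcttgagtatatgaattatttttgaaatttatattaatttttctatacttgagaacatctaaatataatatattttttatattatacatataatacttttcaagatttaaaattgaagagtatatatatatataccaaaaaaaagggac

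The match in HSP21 began 100 bases before the start, in HSP23.5 94 bases, in HSP26.5 48 bases and in HSP15.7 158 bases. HSP21 and HSP26.5 held the same 8 letters, GAAACTTC. HSP21 also held a match 27 bases after the start, HSP23.6 held its only match 14 bases after the start, and HSP22 held none. None of the 6 genes held a longer form in which one more GAA or TTC follows at the same spacing, which was found in 0.481% of all gene starts and in 2 of the 10 genes for cytosolic small heat shock proteins. None held the G-box CACGTG (7.68% of all gene starts), which is its own reverse complement, or the endoplasmic reticulum stress element on either strand (0.849%). Each longer form contains both short forms, so the counts of short and long forms overlap. A match or its lack describes letters only.

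Before the light treatment the transcripts of these genes were absent or scarce in local leaves. HSP21 and HSP22 had no read in any of the 6 local libraries at 0 min or in any of the 6 at 2 min. A library with no read allows up to 3 reads, which was worth at most 3.52 normalized counts in a WT local library. HSP23.5 was the exception, with 152, 177 and 165 normalized counts in the 3 WT local libraries at 0 min. On a scale of normalized counts per kb of exon, its WT level of 148 ± 11.2 (SD, n = 3, as for later values) was followed by HSP15.7 at 26.2 ± 2.46, HSP23.6 at 6.22 ± 4.38 and HSP26.5 at 2.43 ± 0.22. The ranges of HSP23.5 and HSP15.7 did not overlap, and HSP23.6 and HSP26.5 did not overlap but each had at most 13 reads in a library. In rbohD local leaves at 0 min the same scale gave 20.2 ± 5.60 for HSP23.5 and 15.8 ± 7.97 for HSP15.7, ranges that overlapped, and at most 3 reads in a library for HSP23.6 and HSP26.5.

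**Figure D1:**
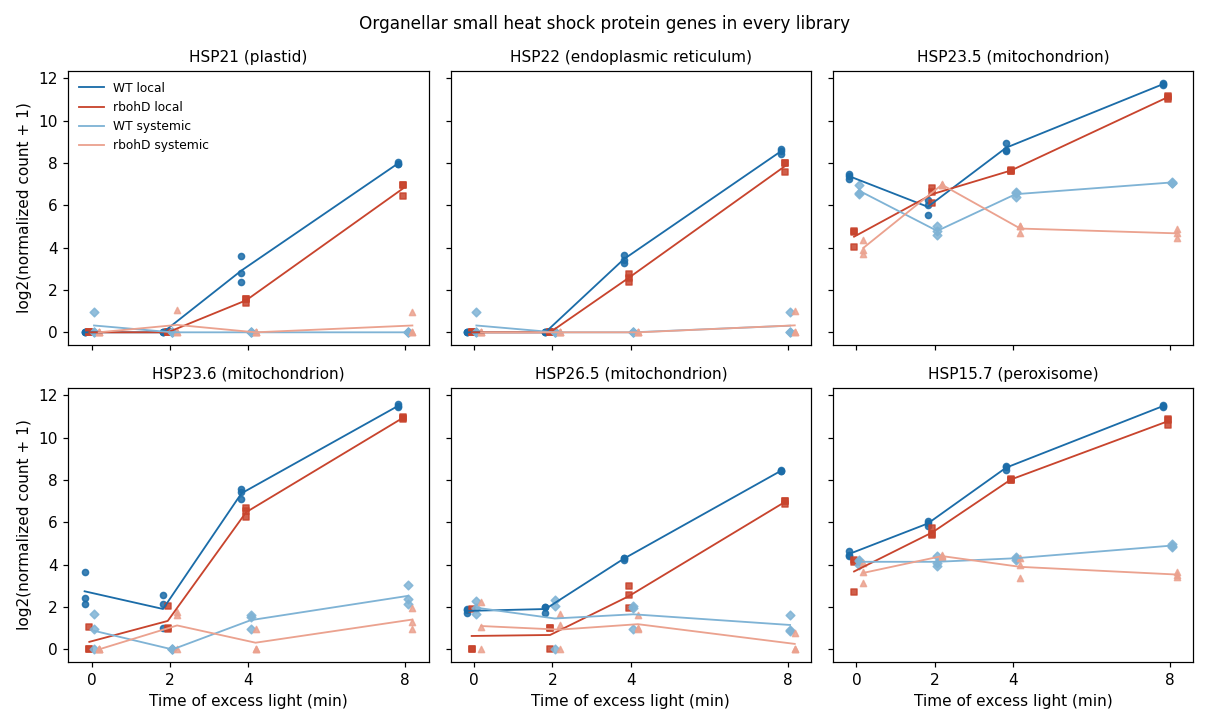
Level of each gene in all 48 libraries as log2(normalized count + 1) against time of excess light in min, with a point for each library and a line through the mean of 3 replicates. In local leaves all 6 genes ended far above their 0 min values, HSP21 and HSP22 starting from 0, and in systemic leaves only HSP23.5 and HSP15.7 were measured above a few reads.

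After 8 min of light the local leaf held transcripts of all 6 genes in both genotypes, and in every 8 min library each gene lay above all 0 min libraries of its table. The plastid gene HSP21 went from 0 at 2 min to 5.87, 11.03 and 4.23 normalized counts at 4 min and 248, 264 and 243 at 8 min in the WT libraries. In rbohD it held 1.94, 1.97 and 1.65 at 4 min, which is 2 reads in each library, and 125, 84.7 and 125 at 8 min. Set against 3 reads in the 0 min library of the smallest depth, the rise by 8 min was at least 73.6-fold in WT and at least 33.6-fold in rbohD.

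HSP22 of the endoplasmic reticulum followed the same course. Its WT local libraries held 11.7, 8.82 and 9.51 normalized counts at 4 min and 340, 400 and 376 at 8 min. The rbohD libraries held 5.81, 4.94 and 4.13 at 4 min and 255, 192 and 253 at 8 min. The rise by 8 min was at least 109-fold in WT and at least 70.4-fold in rbohD against the same floor of 3 reads per library.

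Of the mitochondrial genes, HSP23.6 started near the floor and reached one of the highest levels. In WT local libraries it held 3.43, 11.8 and 4.33 normalized counts at 0 min, 1.02, 3.39 and 4.998 at 2 min, 190, 137 and 171 at 4 min and 2853, 3047 and 2817 at 8 min. In rbohD a single read was found over the 3 libraries at 0 min, and the libraries held 74.6, 101 and 91.7 normalized counts at 4 min and 2045, 1920 and 1916 at 8 min. The ratio of 8 min to 0 min was 433 in WT (95% interval 283 to 699.97) and 5706 in rbohD (95% interval 1024 to 225419.7, from 1 read at 0 min). These intervals and those below are exact, condition on the total of reads and cover counting error only.

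HSP26.5 was the lowest of the mitochondrial genes at 4 and 8 min in local leaves. The WT local libraries held 2.28, 2.72 and 2.60 normalized counts at 0 min, 18.8, 18.7 and 17.96 at 4 min and 338, 349 and 343 at 8 min, a ratio of 134 to 0 min (95% interval 68.0 to 312). The rbohD libraries held 2.91, 6.91 and 4.96 at 4 min and 130, 116 and 130 at 8 min, a ratio of 122 (95% interval 41.4 to 594, from 3 reads at 0 min).

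HSP23.5, the mitochondrial gene that was already present at 0 min, first fell in WT. Its 152, 177 and 165 normalized counts dropped to 63.2, 45.2 and 74.98 at 2 min, and it then held 493, 381 and 395 at 4 min and 3354, 3473 and 3284 at 8 min. In rbohD it did not fall but held 26.52, 15.3 and 25.7 at 0 min, 98.7, 68.3 and 112 at 2 min, 204, 194 and 197 at 4 min and 2217, 2067 and 2317 at 8 min. The 2 min libraries lay below all 0 min libraries in WT and above all 0 min libraries in rbohD. The ratio of 8 min to 0 min was 20.3 in WT and 97.5 in rbohD.

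HSP15.7 of the peroxisome was the only gene that had risen at every time in local leaves of both genotypes, also under every alternative run. In WT it held 20.6, 20.9 and 24.2 normalized counts at 0 min, 55.03, 65.5 and 61.98 at 2 min, 410, 385 and 357 at 4 min and 2836, 2958 and 2844 at 8 min. In rbohD it held 5.52, 17.5 and 16.5 at 0 min, 40.7, 43.1 and 52.8 at 2 min, 256, 255 and 268 at 4 min and 1864, 1569 and 1831 at 8 min. The libraries of successive times did not overlap in either genotype, and the ratio of 8 min to 0 min was 131 in WT (95% interval 103 to 168) and 132 in rbohD (95% interval 96.3 to 186).

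These changes were tested with limma on log2(normalized count + 1) over the genes of a table for which 3 or more libraries reached 10 normalized counts. All 6 genes passed this filter in the local tables, but HSP21, HSP22, HSP23.6 and HSP26.5 passed it only through libraries of 4 or 8 min and so had to differ, and their fitted changes at these times are given as a description with no test. HSP23.5 and HSP15.7 passed it on libraries of 0 and 2 min alone. Both were higher than at 0 min after 8 min in WT local leaves, where 22.9% of 18055 genes tested were called higher, and in rbohD local leaves, where 19.1% of 17538 were. Both were also higher at 4 min, against 13% and 25% of genes called higher in WT and rbohD.

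The fitted log2 changes at 8 min in WT local leaves were 6.98 for HSP15.7 (SE 0.09, adjusted p 1.02e-24) and 4.35 for HSP23.5 (SE 0.12, adjusted p 2.49e-18), which took ranks 9 and 55 by size among all genes tested. Those of the other 4 genes were 8.76 for HSP23.6 (SE 0.32), 8.54 for HSP22 (SE 0.34), 7.98 for HSP21 (SE 0.40) and 6.61 for HSP26.5 (SE 0.24). In rbohD local leaves the fitted change was 10.58 for HSP23.6 (SE 0.28), and the others lay between 6.34 for HSP26.5 and 7.86 for HSP22. For genes with no or few reads at 0 min the fitted value depends on the added 1 and is not a fold change.

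From 4 to 8 min the fitted changes of the 6 genes in local leaves lay between 2.91 (HSP15.7) and 5.09 (HSP22) on the log2 scale in WT and between 2.75 (HSP15.7) and 5.29 (HSP22) in rbohD. HSP23.5 and HSP15.7 were called higher in both, against 19% of genes in WT and 14.8% in rbohD. From 2 to 4 min the fitted changes lay between 2.38 (HSP26.5) and 5.46 (HSP23.6) in WT and between 1.11 (HSP23.5) and 5.14 (HSP23.6) in rbohD. HSP23.5 and HSP15.7 were called higher there too, against 33.1% and 28.1% of genes. In rbohD HSP21 rested on 2 reads per library at 4 min. Its fitted change from 0 min there was 1.51, and 0.45 at the lowest over the alternatives.

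**Figure D2:**
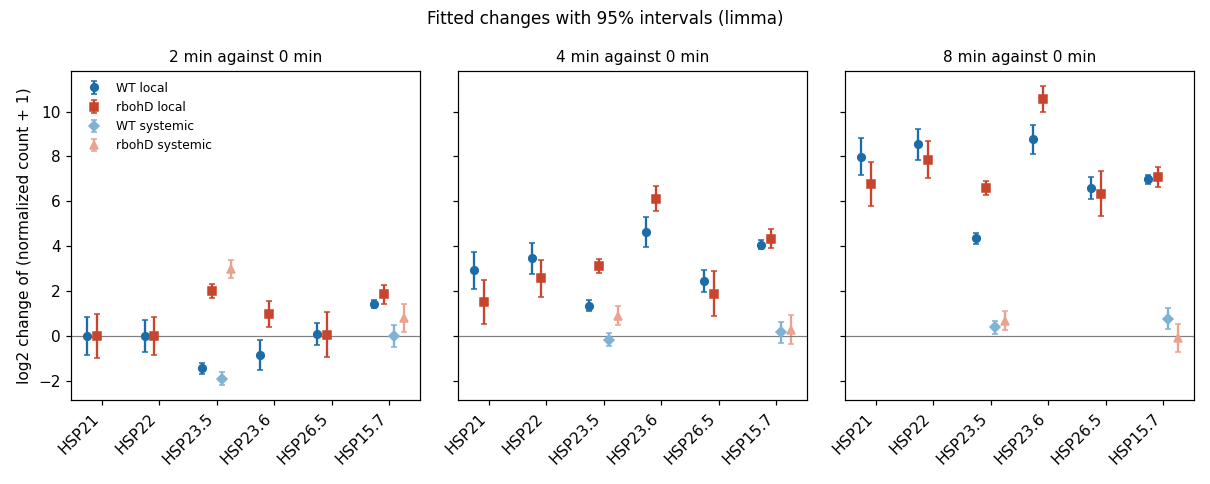
Fitted log2 change of (normalized count + 1) from 0 min, with 95% intervals from limma, for each gene in the tables where it was tested. At 2 min HSP23.5 lies below 0 in both WT leaves and above 0 in both rbohD leaves, and at 8 min all local values lie above 4 while all systemic values lie below 1.

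At 2 min the genes parted. HSP15.7 was higher in local leaves of WT by 1.43 (SE 0.09, adjusted p 3.33e-12) and of rbohD by 1.85 (SE 0.21, adjusted p 8.53e-09). HSP23.5 was lower in WT by 1.44, a change of -1.44 (SE 0.12, adjusted p 5.61e-10), and higher in rbohD by 2.01 (SE 0.15, adjusted p 5.80e-13). HSP23.6 was called lower in WT (-0.83, adjusted p 0.026) and higher in rbohD (0.99, adjusted p 0.0027), but on at most 13 reads per library, and both calls were lost with edgeR and with DESeq2 on the recovered reads. The WT call was also lost without WT local 0 min replicate 2 (-0.37) or 2 min replicate 1 (-0.39) and when all libraries were rescaled to one total (-0.71). HSP21 and HSP22 had no reads to compare, and HSP26.5 changed by 0.09 in WT (95% interval -0.40 to 0.58) and 0.05 in rbohD (95% interval -0.95 to 1.05). Altogether 1 of 6 genes was higher and 2 were lower in WT, where 33.4% of genes were called higher and 33.5% lower, and 3 of 6 were higher in rbohD, where 35.5% were.

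The compartments were compared by level per kb at 8 min, when every gene was measured. In WT local leaves the order was HSP15.7 at 3453 ± 81.9 normalized counts per kb, HSP23.5 at 3023 ± 85.7, HSP23.6 at 2773 ± 118, HSP22 at 359 ± 29.5, HSP26.5 at 329 ± 5.03 and HSP21 at 256 ± 11.3. Neighbours in this order did not overlap except HSP22 and HSP26.5. The 3 highest genes lay above 96.2% of the genes tested in that table, and HSP21 above 63.1%. In rbohD local leaves the order was the same, from 2104 ± 194 for HSP15.7 through 1974 ± 113 for HSP23.5, 1870 ± 69.7 for HSP23.6, 225 ± 35.0 for HSP22 and 120 ± 7.53 for HSP26.5 to 113 for HSP21, which ranged from 86.2 to 127. There the 3 highest overlapped with their neighbours, and so did HSP26.5 and HSP21.

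**Figure D3:**
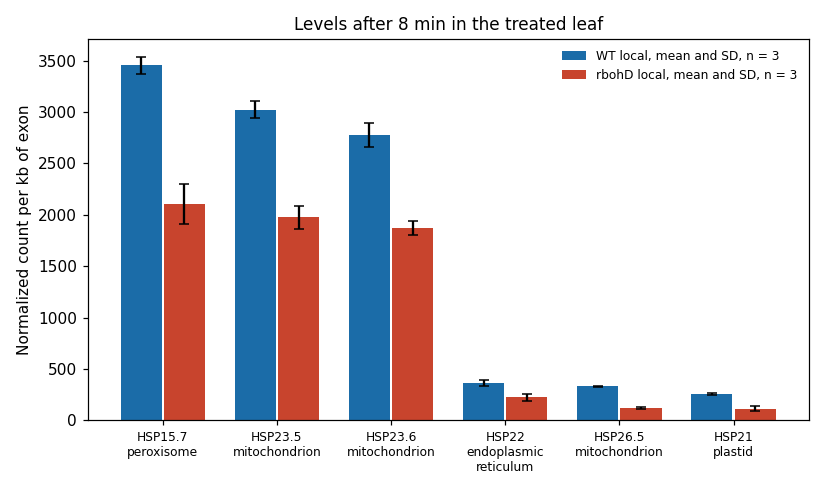
Normalized counts per kb of exon in local leaves after 8 min, as bars for the mean of 3 libraries with the SD. HSP15.7, HSP23.5 and HSP23.6 stand between 1870 and 3453, and HSP22, HSP26.5 and HSP21 between 113 and 359. The genotypes come from separately normalized tables.

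Summed per kb, the mitochondrial genes took 85.6 ± 1.60% of the level of all 6 genes in WT local leaves at 0 min. They took 45.0 ± 7.10% after 2 min, 53.7 ± 2.81% after 4 min and 60.1 ± 0.32% after 8 min. The peroxisomal HSP15.7 took 14.4 ± 1.60%, 55.0 ± 7.10%, 44.7 ± 2.49% and 33.9 ± 0.28% at the same times. At 0 and 2 min the mitochondrial share in WT was mostly that of HSP23.5, with 148 and 54.8 normalized counts per kb. HSP23.6 held 6.22 and 2.99 and HSP26.5 held 2.43 and 2.65, both on few reads, while HSP15.7 held 26.2 and 72.9. In rbohD local leaves the mitochondrial share was 58.3 ± 19.8% at the start, 60.8 ± 4.62% after 2 min, 45.7 ± 1.13% after 4 min and 61.9 ± 1.63% after 8 min. The rbohD shares at 0 min rested on few reads and their SD covers the later values, so no change from 0 min is read from them. At 8 min HSP22 of the endoplasmic reticulum took 3.52 ± 0.22% in WT and 3.50 ± 0.34% in rbohD, and the plastid HSP21 took 2.51 ± 0.03% and 1.76 ± 0.27%. HSP23.6 alone went from 3.30 ± 2.08% at 0 min to 27.2 ± 0.31% at 8 min in WT.

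**Figure D4:**
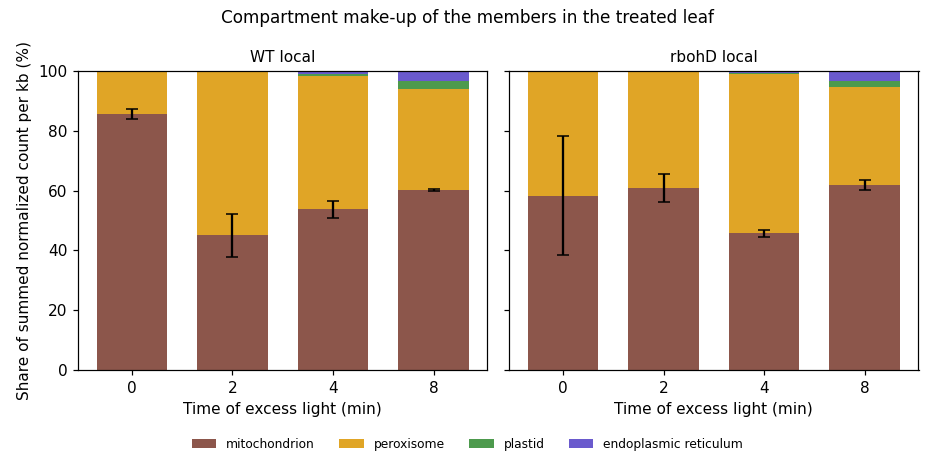
Share of the summed normalized count per kb of the 6 genes in each compartment, in local leaves by time in min, as stacked bars of the mean of 3 libraries with the SD of the mitochondrial share. In WT the mitochondrial share goes from 85.6% to 45.0% between 0 and 2 min and stands at 60.1% at 8 min. At 0 and 2 min it is mostly that of HSP23.5.

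Pairs of genes were compared in the same libraries with an exact permutation test of the difference between their log2 changes, two-sided and adjusted over the 15 pairs. At 8 min in local leaves the test called 11 of 15 pairs, and the smallest p the 400 arrangements allow is 0.005. Every pair but HSP23.5 with HSP15.7 holds a gene with no or few reads at 0 min. The size of those differences depends on the added 1, and their calls are given as a description. HSP23.6 rose more than HSP23.5, the other abundant mitochondrial form, with a difference of -4.20 for HSP23.5 minus HSP23.6 (adjusted p 0.0125), which was -4.41 in WT and -3.99 in rbohD. HSP23.5 minus HSP15.7 was -1.57 (adjusted p 0.0477), which was -2.63 in WT and -0.51 in rbohD. This last call was lost when the libraries were rescaled to one total and without WT local 0 min replicate 1 or 3, rbohD local 0 min replicate 1 or any 1 of the 8 min libraries. With a pseudocount of 5 the sign turned for HSP21 against HSP23.5 (-0.23) and for HSP15.7 against both HSP21 (-1.61) and HSP22 (-0.81). HSP23.5 minus HSP23.6 kept its sign but was -2.95 at its smallest size over the alternatives. At 2 min no pair with HSP21, HSP22 or HSP26.5 is read, since these had at most 4 reads in a library. HSP23.5 minus HSP15.7 at 2 min was below 0 in WT, at -2.88 in the lit and -1.91 in the unlit leaf, and above 0 in rbohD, at 0.16 in the lit and 2.19 in the unlit leaf (adjusted p 0.69 over the 4 tables by the same exact test). This test averages the tables, so differences of opposite sign cancel. It cannot show a difference that turns with genotype, and nothing is concluded from it.

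In systemic leaves, which received no excess light, 4 of the 6 genes stayed at or near 0 and did not reach the filter. HSP21 and HSP22 had at most 1 read in any of the 24 systemic libraries. HSP26.5 had at most 4 reads in a library, and HSP23.6 at most 3 in rbohD. In WT systemic leaves HSP23.6 held 2.15, 0.98 and 0 normalized counts at 0 min, 0 in all 3 libraries at 2 min and 7.35, 4.23 and 3.39 at 8 min, which is 4 to 8 reads, a ratio of 4.97 to 0 min (95% interval 1.42 to 26.6). The 8 min libraries lay above the 0 min libraries. HSP23.6 was not among the genes tested there and entered only the alternative run with no filter on low values.

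HSP23.5 was the gene that moved most in systemic leaves. In WT it held 124, 95.3 and 91.8 normalized counts at 0 min, 23.3, 26.2 and 30.97 at 2 min, 94.01, 82.7 and 96.9 at 4 min and 132, 133 and 137 at 8 min. In rbohD it held 12.2, 13.6 and 19.8 at 0 min, 122, 122 and 129 at 2 min, 31.2, 30.96 and 24.9 at 4 min and 28.6, 24.5 and 20.96 at 8 min. The 2 min libraries lay below all others in WT and above all others in rbohD. The change at 2 min was -1.91 in WT (SE 0.14, adjusted p 1.15e-10) and 2.98 in rbohD (SE 0.21, adjusted p 3.55e-16). At 2 min 1 of the 2 genes tested was lower in WT, where 29.9% of genes were called lower, and both were higher in rbohD, where 31.8% were.

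From 2 to 4 min HSP23.5 moved back in both genotypes, by 1.73 in WT (adjusted p 5.44e-10), where 1 of 2 genes and 30.9% of all genes were higher, and by -2.07 in rbohD (adjusted p 2.10e-11), where 1 of 2 genes and 26.6% of all genes were lower.

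At later times the systemic changes from 0 min were small. HSP23.5 in WT was at -0.17 at 4 min (95% interval -0.47 to 0.12), and was called higher at 8 min by 0.38 (adjusted p 0.032), a call lost without WT systemic 0 min replicate 2 or 3, without any 1 of the 8 min libraries, with no filter on low values, and with DESeq2. At 4 min in WT 0 of 2 genes were called by limma, edgeR or DESeq2, or at an unadjusted p under 0.05, against 27.9% of genes called. In rbohD HSP23.5 was higher at 4 min by 0.91 (adjusted p 6.53e-04), where 13.5% of genes were called higher, and at 8 min by 0.68 (adjusted p 0.019), where 7.51% were. The 8 min call in rbohD was lost with edgeR, with DESeq2, with no filter on low values, in a fit of only the groups compared, without 0 min replicate 1 or 2, and without 8 min replicate 1.

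HSP15.7 in WT systemic leaves held 15.1, 17.7 and 17.2 normalized counts at 0 min and 27.6, 30.7 and 28.8 at 8 min, with no overlap, and was called higher by 0.77 (SE 0.23, adjusted p 0.0088), though not by DESeq2 (adjusted p 0.051). Both genes tested were thus higher at 8 min in WT, where 21.8% of genes were. At 2 min its change in WT had a 95% interval of -0.48 to 0.47, and in rbohD it was higher by 0.79 (adjusted p 0.026), a call lost with DESeq2 and without rbohD systemic 0 min replicate 3 or 2 min replicate 2 or 3, when 1 of 2 genes was called. In rbohD the 8 min libraries, at 10.5, 9.80 and 11.6, overlapped with 0 min.

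**Figure D5:**
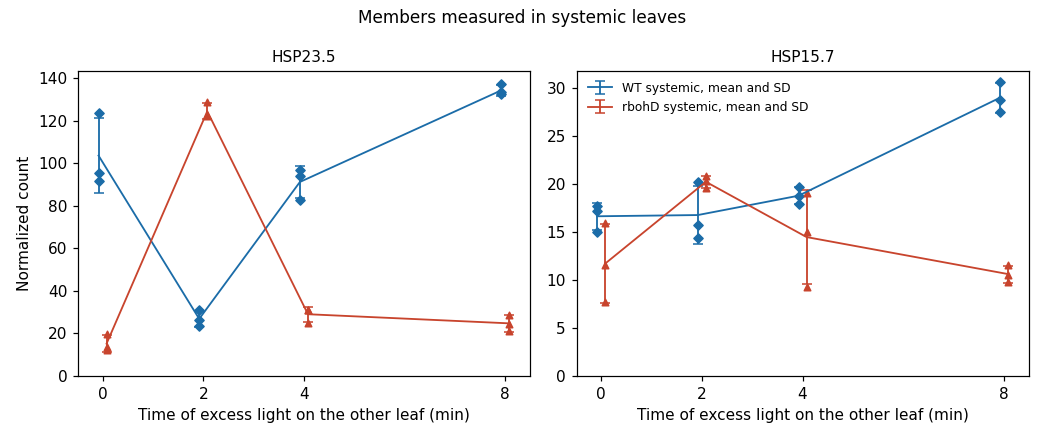
Normalized counts of HSP23.5 and HSP15.7 in systemic leaves against time in min, with a point per library and the mean and SD of 3. HSP23.5 falls to 26.8 at 2 min in WT and rises to 124 in rbohD, and HSP15.7 stands at 29.0 at 8 min in WT.

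Whether a change differed between the genotypes was tested as an interaction, WT minus rbohD, which compares changes within tables. For HSP23.5 this difference at 2 min was -3.45 in the lit leaf (SE 0.22, adjusted p 8.76e-16), and it was -4.89 in the unlit leaf (SE 0.24, adjusted p 2.26e-19). The lit leaf also gave -1.77 at 4 min (adjusted p 4.36e-08), then -2.24 at 8 min (adjusted p 1.12e-09), and in systemic leaves the value was -1.08 at 4 min (adjusted p 9.87e-04) but was not called at 8 min (-0.30, 95% interval -0.79 to 0.19). The 0 min levels beside these differences were 165 ± 12.5 and 104 ± 17.5 normalized counts in WT local and systemic leaves and 22.5 ± 6.25 and 15.2 ± 4.02 in rbohD. In local leaves HSP23.5 thus differed at each time, with the lower change from 0 min in WT, and HSP15.7 at none. This concerns the change and not the level. The limma count was 2 of 6 genes at each time, the other being HSP23.6, also with the lower change in WT. HSP21, HSP22, HSP23.6 and HSP26.5 passed the filter only through libraries of 4 or 8 min, so that count is a description. HSP21 and HSP22 had no read at 0 and 2 min there and could not differ at 2 min. The change was called lower in WT for 29.7%, 17.5% and 11.5% of genes at 2, 4 and 8 min. In systemic leaves 1, 1 and 0 of 2 genes differed, where 55.8%, 18.5% and 35.7% of genes were called at all.

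The other gene called in local leaves was HSP23.6, with -1.82 at 2 min (adjusted p 0.0011), -1.50 at 4 min (adjusted p 0.011) and -1.82 at 8 min (adjusted p 0.0045). These rest on 1 read over the 0 min libraries of rbohD, and with a pseudocount of 5 the difference was -0.18 at 4 min (adjusted p 0.67) and -0.47 at 8 min (adjusted p 0.24), while that at 2 min was lost with edgeR and DESeq2. At 4 min the call was also lost without WT local 0 min replicate 2. HSP15.7 was not called at any time in local leaves, with -0.41 at 2 min (95% interval -0.97 to 0.14), -0.27 at 4 min (95% interval -0.83 to 0.29) and -0.11 at 8 min (95% interval -0.67 to 0.45), but was called at 2 min without rbohD local 0 min replicate 2 (-0.68) or 3 (-0.64). HSP21 (1.19, 95% interval 0.02 to 2.36, adjusted p 0.16), HSP22 (0.68, 95% interval -0.31 to 1.67) and HSP26.5 (0.27, 95% interval -0.84 to 1.38) were not called at 8 min, though with a pseudocount of 5 HSP21 (1.16) and HSP26.5 (1.04) were, and HSP21 was also called in a fit of only the groups compared. At 4 min HSP21 (1.41, 95% interval 0.23 to 2.58, adjusted p 0.058), HSP22 (0.89) and HSP26.5 (0.59) were not called either. HSP21 was called there with no filter on low values and without WT local 4 min replicate 3, and HSP26.5 with a pseudocount of 5. All of these values are above 0, rest on few reads at 0 min and are a description. In systemic leaves HSP15.7 differed by -0.79 at 2 min (adjusted p 0.073) and 0.85 at 8 min (adjusted p 0.078), and was called at 2 min without WT systemic 2 min replicate 1 or rbohD systemic 0 min replicate 1 and at 8 min without rbohD systemic 0 min replicate 3. At 8 min in systemic leaves, 0 of 2 genes were called by limma, edgeR or DESeq2, and 1 of 2, HSP15.7, had an unadjusted p under 0.05.

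The lit and the unlit leaf were compared in the same way, local minus systemic, for the 2 genes tested in both. HSP15.7 differed at all times in WT, by 1.43, 3.91 and 6.21 at 2, 4 and 8 min (adjusted p 4.50e-06, 3.59e-16 and 2.98e-22), and in rbohD by 1.06, 4.06 and 7.17 (adjusted p 0.023, 7.20e-12 and 6.30e-21). HSP23.5 differed in WT at 4 and 8 min, by 1.52 (adjusted p 8.38e-07) and 3.97 (adjusted p 6.03e-17), and at 2 min the difference was not called (0.46, 95% interval 0.08 to 0.85, adjusted p 0.11) unless WT local 2 min replicate 2 was left out (0.66). In rbohD the 2 min rise of HSP23.5 was smaller in the lit leaf, with a difference of -0.97 (adjusted p 0.0020), and by 8 min the lit leaf was ahead by 5.90 (adjusted p 6.03e-24). The share of genes called was 12%, 6.35% and 13.8% in WT and 25.8%, 16.6% and 20.9% in rbohD at 2, 4 and 8 min. The 2 min difference of HSP15.7 in rbohD was lost with edgeR and DESeq2 and without rbohD local 0 min replicate 1, rbohD local 2 min replicate 3 or rbohD systemic 0 min replicate 1.

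Other chaperones of the same organelles refold proteins with ATP or help them fold. Of 18 ATP-driven and folding chaperones of the plastid, mitochondrion and endoplasmic reticulum, all tested, 11 were higher and 4 lower at 8 min in WT local leaves, with a median change of 0.25 against -0.01 over all genes, and 14 were higher and 1 lower in rbohD (median 0.43 against 0.00). The shares over all genes were 22.9% higher and 22.6% lower in WT and 19.1% higher and 16% lower in rbohD. The largest changes in WT were those of MTHSC70-2, a mitochondrial HSP70 (2.54), CLPB4, the mitochondrial ClpB disaggregase (2.18), and CLPB3, its plastid counterpart (1.30). At 2 min in WT local leaves all 6 plastid and all 6 mitochondrial chaperones of this list were lower and all 6 of the endoplasmic reticulum were higher. In WT systemic leaves at 2 min the same held for the 6 plastid and 6 mitochondrial genes, while 3 of the 6 of the endoplasmic reticulum were higher, or 6 of 6 after rescaling to one total. In rbohD local leaves at 2 min 5 of 6 plastid, 4 of 6 mitochondrial and 0 of 6 endoplasmic reticulum genes were lower. Over all genes at 2 min, 33.5% were lower and 33.4% higher in WT local, 29.9% lower and 30.4% higher in WT systemic, and 33.8% lower and 35.5% higher in rbohD local leaves. MTHSC70-2 fell from 2682 ± 70.1 to 1278 ± 29.7 normalized counts at 2 min in WT local leaves and rose from 1180 ± 9.28 to 1838 ± 133 in rbohD, the same directions as HSP23.5.

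The small heat shock proteins listed as cytosolic share the fold, and their place in the cell was not measured here. Of the 10 genes, all tested in local leaves, 9 were higher and 0 lower at 8 min in both genotypes, with medians of 5.78 in WT and 8.27 in rbohD. Over all genes 22.9% were higher in WT and 19.1% in rbohD. Genes of this list that passed the filter only through later libraries were not set apart, so the counts at 8 min are a description. Where reads at 0 min are few, the fitted size depends on the added 1. The largest changes in WT were those of AT1G53540 (8.59), AT1G59860 (7.13) and HSP17.6A (6.07). At 2 min 3 were higher and 5 lower in WT local leaves, 4 lower under the other scalings, and 9 were higher and 1 lower in rbohD. Over all genes 33.4% were higher and 33.5% lower in WT local leaves, and 35.5% were higher in rbohD local leaves. In systemic leaves at 2 min 1 was higher and 6 lower of 8 tested in WT, where 29.9% of all genes were lower. In rbohD 7 were higher and 1 lower of 8, where 31.8% of all genes were higher and 31.5% lower.

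Of the 21 heat shock factors, the transcription factors that bind heat shock elements, 16 were tested in local leaves. At 8 min 10 were higher and 1 lower in WT, where 22.9% of all genes were higher. In rbohD 8 were higher and 0 lower, where 19.1% of all genes were higher. The largest changes in WT were those of HSFA7B (6.50, from no read at 0 min), HSFA7A (5.95) and HSFA2 (5.14). The size for HSFA7B depends on the added 1 and is given as a description. With no read at 0 min, HSFA7B could pass the filter only through later libraries. Factors of this kind were not set apart, so the counts at 8 min are a description too. HSFA2 held 678 ± 25.8, 648 ± 37.0, 5580 ± 625 and 23854 ± 177 normalized counts at 0, 2, 4 and 8 min in WT local leaves and 42.0 ± 6.16, 679.98 ± 9.59, 3210.3 ± 223 and 15542 ± 592 in rbohD. In systemic leaves it held 601 ± 28.9 and 283 ± 32.9 at 0 and 2 min in WT and 35.8 ± 5.59 and 871 ± 38.3 in rbohD. At 2 min HSFA2 rose in the rbohD local (4.00, adjusted p 1.41e-28) and systemic leaf (4.58, adjusted p 1.30e-29), fell in the WT systemic leaf (-1.09, adjusted p 1.17e-11) and was not called in the WT local leaf (-0.07, adjusted p 0.31).

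Likeness of pattern was described by Pearson's r over the 48 libraries on the log2 scale after the mean of each table was removed, among 17190 genes. The libraries share tables and times, and the 6 local libraries of 8 min carry much of any r. Only 7 of the 18 pairings given here were also among the 3 nearest by Spearman's rho, all 3 of HSP23.5 and none of HSP21, HSP22 or HSP26.5. The genes most like HSP23.5 were AT3G07090 (r = 0.986), AT1G30070 (r = 0.984) and Hop3, a co-chaperone that joins HSP70 and HSP90 (r = 0.984). Those most like HSP15.7 were RAP2.4, an AP2-type transcription factor (r = 0.982), AT5G35320 (r = 0.973) and AT1G54050 of the cytosolic list (r = 0.971). Those most like HSP23.6 were AT2G29500 of the cytosolic list (r = 0.965), AT3G10020 (r = 0.961) and AT5G25450 (r = 0.954). HSP21, HSP22 and HSP26.5 shared their 3 nearest genes, BAG6, a calmodulin-binding co-chaperone (r = 0.979, 0.988 and 0.945), the cytosolic Hsp70b (r = 0.974, 0.976 and 0.944) and AT4G15420 (r = 0.974, 0.977 and 0.943). Between the 6 genes r was between 0.829 (HSP23.5 and HSP26.5) and 0.986 (HSP21 and HSP22).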

How the data were processed

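RNA from local and systemic leaves of WT and rbohD plants was sequenced in 48 libraries. Per the labels' processing notes, the tools were FastQC 0.11.7, STAR 2.4.0.1 and DESeq2 1.20.0 with genome TAIR10; the counting tool, the use of strand and the handling of reads with several matches are not given in the sources used here. The authors deposited 4 tables of gene counts divided by library size factors, a signal that is normalized within each table but not for gene length. Whole reads were recovered by dividing each column by the value of 1 read (100% of values whole within 0.01 read), which gave 13412657 to 28675623 reads per library.

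Within each table, log2(normalized count + 1) was fitted with limma 3.58.1 (R 4.3.3, trend) over genes for which 3 or more libraries reached 10 normalized counts, two-sided, with Benjamini-Hochberg adjustment over all genes tested and a threshold of 0.05. Genotype and leaf interactions used the 24 libraries of both tables. Local and systemic leaves came from the same plants, which the main model leaves out, and p-values measure the spread between pools of leaves. Pairs of genes were compared by exact permutation within tables.

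Alternatives were a pseudocount of 5, no filter, rescaling to one total, edgeR 4.0.16 and DESeq2 1.42.0 on the recovered reads, only the groups compared, each library left out, a replicate block and, added after seeing the data, a block of same-numbered local and systemic libraries. On simulated counts limma recovered 97% of log2 changes of 1 in WT local leaves at 8 min over 18055 genes and 86% in the local genotype interaction over 17473 genes. The simulation drew the changed genes only from those above a minimum mean count and gave every gene the same dispersion. Its recovery therefore does not apply to genes with few reads. The genes described and the lists (21 heat shock factors, 10 cytosolic small heat shock proteins, 18 organelle chaperones) were chosen with earlier results of these data known. All 6 genes are named, with the 3 genes of each list that changed most at 8 min in WT local leaves among those called and the 3 genes of highest r to each of the 6. HSP23.5, HSP26.5 and HSP15.7 are names used here for loci that the RefSeq table used lists without that symbol.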

Additional observations from a re-analysis of the deposited data

Results flagged for a closer look

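The following results were picked out because a change differed between the genotypes or between the leaves by the interaction test in limma. Between the genotypes, WT minus rbohD, in local leaves HSP23.5 differed by -3.45 at 2 min, -1.77 at 4 min and -2.24 at 8 min on the log2 scale. HSP23.6 differed there by -1.82 at 2 min, -1.50 at 4 min and -1.82 at 8 min, with 1 read over the 3 rbohD libraries at 0 min. With a pseudocount of 5 its differences at 4 and 8 min were -0.18 and -0.47 and were not called. Its 2 min call was lost with edgeR, with DESeq2 and in a fit of only the groups compared. In systemic leaves HSP23.5 differed by -4.89 at 2 min and -1.08 at 4 min.

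Between the leaves, local minus systemic, HSP15.7 differed in WT by 1.43, 3.91 and 6.21 and in rbohD by 1.06, 4.06 and 7.17 at 2, 4 and 8 min. HSP23.5 differed in WT by 1.52 at 4 min and 3.97 at 8 min, and in rbohD by -0.97, 2.21 and 5.90 at 2, 4 and 8 min. Genotype, experiment and table cannot be told apart.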

How the results depend on the processing

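No alternative turned the sign of a called change of any of the 6 genes. HSP23.5 and HSP15.7 were called higher in local leaves at 4 and 8 min under rescaling, edgeR and DESeq2 too. With DESeq2 the number of the 6 genes called was 0 instead of 2 in WT systemic leaves at 8 min, 1 instead of 2 between 4 and 8 min there, 1 instead of 2 in rbohD systemic leaves at 2 min and 0 instead of 1 at 8 min. The rbohD systemic count at 8 min was also 0 with edgeR and in a fit of only the groups compared. With DESeq2, edgeR or only the groups compared, 1 instead of 2 genes differed at 2 min between the genotypes in local leaves and between the leaves of rbohD. With no filter on low values 2 instead of 1 were called in WT systemic leaves between 2 and 4 min and between the genotypes in systemic leaves at 2 min, 6 instead of 2 between the leaves of WT at 4 and 8 min, 1, 5 and 6 instead of 2 between the leaves of rbohD at 2, 4 and 8 min.

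Leaving out each library in turn gave counts of 1 to 2 (WT systemic 8 min), 1 in every case (WT systemic 8 against 4 min), 1 to 2 (rbohD systemic 2 min), 0 to 1 (rbohD systemic 8 min), 2 to 3 and 1 to 3 (genotype, local, 2 and 4 min), 1 to 2 and 0 to 1 (genotype, systemic, 2 and 8 min), 1 to 2 (leaf, WT and rbohD, 2 min) and 8 to 13 of 15 pairs at 8 min. With a pseudocount of 5 the difference of changes turned sign for HSP21 against HSP23.5 (-0.23), HSP21 against HSP15.7 (-1.61) and HSP22 against HSP15.7 (-0.81), since HSP21 and HSP22 start from 0 reads. The cause of the other shifts was not tested. Deviations of same-numbered libraries correlated above 0.1 in 4 of 72 pairs across times and 1 of 24 across leaves, so the numbers were not taken to pair libraries across times. A replicate block within each table gave 1 instead of 2 calls in WT systemic leaves between 4 and 8 min and changed no other count by over 1.5 times. Local and systemic leaves were taken from the same plants, and the labels do not say whether equal numbers mark the same pool. With libraries of the same time and number in both leaves as a replicate block, chosen after seeing the data, every call of the leaf comparisons was kept, and HSP23.5 in WT at 2 min stayed uncalled (adjusted p 0.064). Rescaling to one total moved the median change of all genes to 0.18 in WT local leaves at 2 min and 0.14 and 0.11 in WT systemic leaves at 2 and 8 min. Depth limits what can be said of genes at 0 to 3 reads, which include HSP21 and HSP22 before 4 min, HSP21 at 4 min in rbohD local leaves, HSP26.5 at 0 and 2 min in local leaves, HSP23.6 at 0 and 2 min in rbohD local leaves, and HSP21, HSP22, HSP23.6 and HSP26.5 in most systemic libraries.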
